A study of Homo sapiens and Mus musculus with 8 samples.

Results

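The G protein alpha subunits described here are the products of GNAS and 9 related genes: GNAL, GNAI1, GNAI2, GNAI3, GNAQ, GNA11, GNA15, GNA12 and GNA13. They were taken by gene symbol, through the Ensembl gene identifier, from a table of 60483 human genes, and all 10 were found in it. All 10 also passed the filter on low counts (at least 1 CPM, the count scaled to the size of its library, in at least 2 libraries), which left 16070 genes. GNA15 passed it only through the KM12 xenografts and GNAL was below 1 CPM in the KM12 cultures, so what is tested for these 2 genes leans on the libraries where they were high.

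The counts come from 2 human lines of colorectal cancer, KM12 and LS174T. Each was grown in culture and as a xenograft, a tumor raised in a mouse from the human cells (labelled CDX tumor). For KM12 the labels give a parental state (GNAS R201H) and a GNAS knockout. LS174T libraries were all labelled GNAS R201H and came with Dox (-) or Dox (+). The 8 libraries are 8 groups of 1 library, so a p-value here measures how far 4 matched pairs agree and not the spread between repeated cultures or animals. The parental and Dox (+) libraries were set against the knockout and Dox (-) libraries, a contrast called GNAS state below. The labels do not say what Dox induces, which cells of the mouse were left in a tumor, or whether the knockout is 1 clone. Every LS174T library carries the R201H label, so an effect of Dox and an effect of GNAS cannot be told apart in that line. The series title concerns the dependence of tumors with R201 mutations on GNAS.

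An alpha subunit binds GDP at rest. A receptor exchanges the GDP for GTP, the alpha subunit leaves the beta and gamma subunits, and its own GTPase activity ends the signal. Members of the Gs class (GNAS, and GNAL of olfactory neurons) activate adenylyl cyclase, which makes cAMP. Members of the Gi class (GNAI1, GNAI2, GNAI3) inhibit it. The Gq class (GNAQ, GNA11, and GNA15 of blood cells) activates phospholipase C beta. GNA12 and GNA13 form the G12 class. R201 of GNAS is the arginine that takes part in GTP hydrolysis, and its replacement by histidine leaves the subunit active without a receptor. In the intestine a bacterial toxin, that of cholera, acts on the same arginine and drives chloride secretion through cAMP.

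The codon for that arginine was located in all 10 genes by aligning each translated coding sequence with that of GNAS, and 9 of the windows are printed. The coding sequence around it is shown because it is the site that the labels of this series name and because it shows how alike the members are in sequence. Each window holds 7 codons on either side, from the transcripts of GENCODE 29, read 5′ to 3′, with the arginine codon in capitals.
GNAS: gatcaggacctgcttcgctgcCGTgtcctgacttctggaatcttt
GNAI1: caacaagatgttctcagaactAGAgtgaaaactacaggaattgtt
GNAI2: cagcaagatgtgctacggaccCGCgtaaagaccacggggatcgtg
GNAI3: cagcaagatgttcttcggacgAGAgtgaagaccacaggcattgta
GNAQ: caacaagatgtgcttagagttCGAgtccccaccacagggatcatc
GNA11: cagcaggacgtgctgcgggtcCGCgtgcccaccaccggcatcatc
GNA15: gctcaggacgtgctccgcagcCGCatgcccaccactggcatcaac
GNA12: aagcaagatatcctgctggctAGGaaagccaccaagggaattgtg
GNA13: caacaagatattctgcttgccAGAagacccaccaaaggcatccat
These are reference sequences. The counts used here do not tell whether a read carried the mutant or the wild-type base.

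In GNAS the codon is that of R201, on chromosome 20 at 58909365 to 58909367 (GRCh38, plus strand), in exon 8 of 13 of the transcript for the 394-residue form. The Gi class has it at codon 178 of GNAI1 (chr7:80203774-80203776, plus strand), 179 of GNAI2 (chr3:50256262-50256264, plus) and 178 of GNAI3 (chr1:109582507-109582509, plus). The Gq class has it at codon 183 of GNAQ (chr9:77797576-77797578, minus) and of GNA11 (chr19:3115014-3115016, plus), and at codon 186 of GNA15 (chr19:3151777-3151779, plus). The G12 class has it at codon 205 of GNA12 (chr7:2731712-2731714, minus) and 200 of GNA13 (chr17:65014791-65014793, minus). All these positions are in coding exons, on GRCh38. GNAS is on chromosome 20, 58839718 to 58911192, plus strand, and its annotated transcripts start at several first exons, including those of the XLas and NESP55 forms, which the counts add together.

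The arginine is kept in 10 of 10 members but its codon is not. GNAS has CGT, GNAQ has CGA and GNA12 has AGG. GNAI2, GNA11 and GNA15 share CGC, and GNAL, GNAI1, GNAI3 and GNA13 share AGA. Over the 45 bases GNAS matched GNAL at 34, and matched the other members at 18 (GNA12) to 30 (GNA15). Protein identity with GNAS was 80.5% for GNAL and between 39.4% (GNA12) and 44.5% (GNAI2) for the other members. Within classes it was 93.8% between GNAI1 and GNAI3, 90.3% between GNAQ and GNA11, 56.8% between GNA15 and each of those, and 65.3% between GNA12 and GNA13. The longest identical run between the coding sequences of 2 members was 47 bases (GNA12 and GNA13), then 35 (GNAS and GNAI3) and 32 (GNA11 and GNA15). Processed pseudogenes exist for GNAI2 (GNAI2P1 and GNAI2P2) and GNAQ (GNAQP1), so some of their reads may be shared.

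Total counts ran from 15924846 to 37735085 a library and were lower in the xenografts. All 11 markers of colorectal epithelium, among them EPCAM and CDH17, were at or above 1 CPM in a xenograft, and their sum ran from 6699 to 27153 CPM over the 8 libraries. Fibroblast markers (7 genes) summed to 264 CPM in the KM12 parental xenograft, mostly COL3A1 at 220.2 CPM, against 3.49 to 12.8 CPM in the other 7 libraries. Within that list the markers did not move together. In that xenograft COL1A1 read 29.24, LUM 10.03 and COL1A2 3.726 CPM, but DCN 0.2293, PDGFRB 0.4586 and PDGFRA 0 CPM. PDGFRB was lower there than in KM12 parental culture (0.5158 CPM). The sums for 4 endothelial markers were at most 1.41 CPM and for 7 leukocyte markers at most 10.7 CPM, with PTPRC at 0 counts in both KM12 xenografts. The table holds 0 mouse gene identifiers. Whether mouse reads entered the counts of human genes in the xenografts was not tested.

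GNAS was the most highly expressed of the 10 genes in 8 of 8 libraries. Scaled by TMM (trimmed mean of M values), it stood at 1119 CPM in KM12 parental culture, 298 in KM12 knockout culture, 1390 in the KM12 parental xenograft and 903 in the KM12 knockout xenograft. In LS174T it stood at 1746 CPM in Dox (+) culture, 691 in Dox (-) culture, 691 in the Dox (+) xenograft and 586 in the Dox (-) xenograft. The knockout library in culture is the lowest of the 8 and the Dox (+) culture the highest, a range of 5.86-fold. The KM12 xenograft labelled knockout held 18604 counts of GNAS and lay above 3 of the 4 LS174T libraries, so the 2 groups of GNAS state overlapped. Counts over the whole gene do not show whether a protein is made, and every direction drawn from that library rests on its label. In bulk RNA, fewer cells of a type and less RNA per cell cannot be told apart.

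**Figure D1:**
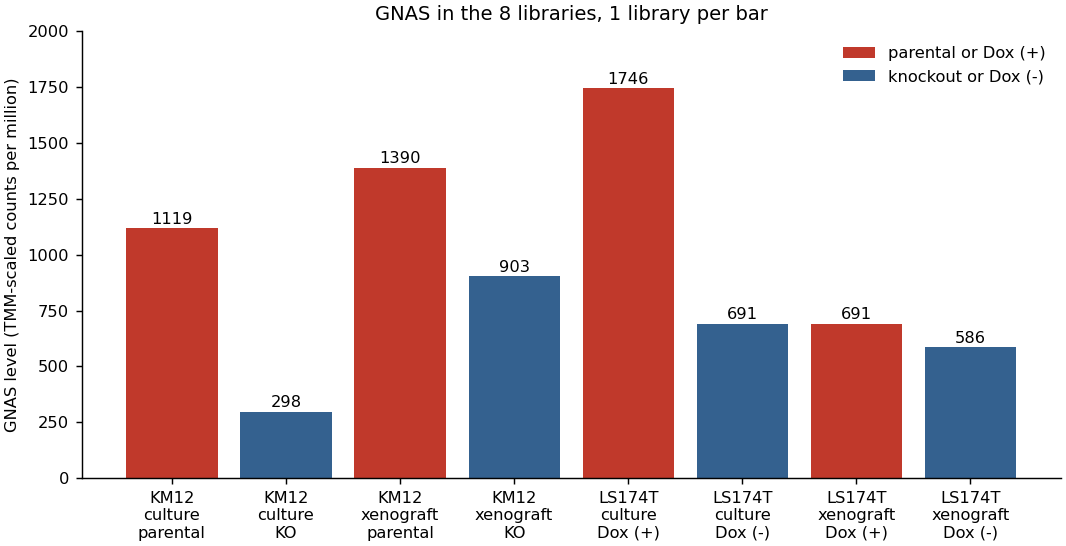
Bars give GNAS in TMM-scaled CPM on the y axis for each of the 8 libraries, 1 library a bar, so there is no error bar. Red bars are KM12 parental or LS174T Dox (+) and blue bars KM12 knockout or LS174T Dox (-). Within each neighbouring pair the red bar is higher, by 1119 to 298 in KM12 culture and by 691 to 586 in LS174T xenografts.

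Per kilobase of annotated exon, GNAS ran from 22.4 to 131 TMM-scaled CPM, with a median of 59.9. GNA11 followed in 8 of 8 libraries (13.2 to 26.8 on the same scale). GNAQ (8.55 to 13.2), GNAI2 (7.03 to 14.1), GNA13 (8.41 to 14.3) and GNA12 (5.52 to 10.1) came next, and their ranges overlapped, with GNAQ above GNAI2 in 3 of 8 libraries and GNA13 above GNA12 in 4 of 8. GNAI3 (2.27 to 3.93) lay below GNA12 in 8 of 8. GNAI1 (0 to 2.54), GNAL (0.0763 to 0.585) and GNA15 (0.0132 to 0.746) were lowest. Some places below GNAS rest on the length used, among them those of GNA11, GNAI2, GNAI3 and GNAI1. By the longest coding transcript GNAI2 followed GNAS and lay above GNA11 in 6 of 8 libraries. GENCODE gives GNAI3 27174 bases of exon and GNAI1 24206, and per base of coding sequence GNAI3 ranked between place 2 and place 5. GNAS was first by exon union, by the longest coding transcript and by coding length alike.

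As a share of the summed per-length level of the 10 genes, GNAS made up 24.4% in KM12 knockout culture and 66.1% in the KM12 parental xenograft, the lowest and the highest of the 8 by exon union. By coding length the highest was LS174T Dox (+) culture, at 74.8% against 74.7%. The shares in the other KM12 libraries were 55.8% in parental culture and 52.3% in the knockout xenograft. LS174T gave 64.3% in Dox (+) culture, 42.7% in Dox (-) culture, 48.5% in the Dox (+) xenograft and 43.1% in the Dox (-) xenograft. The share was thus higher in the parental or Dox (+) library in 4 of 4 pairs. The median over the libraries was 50.4% by exon union and 68.5% by the longest coding transcript.

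**Figure D2:**
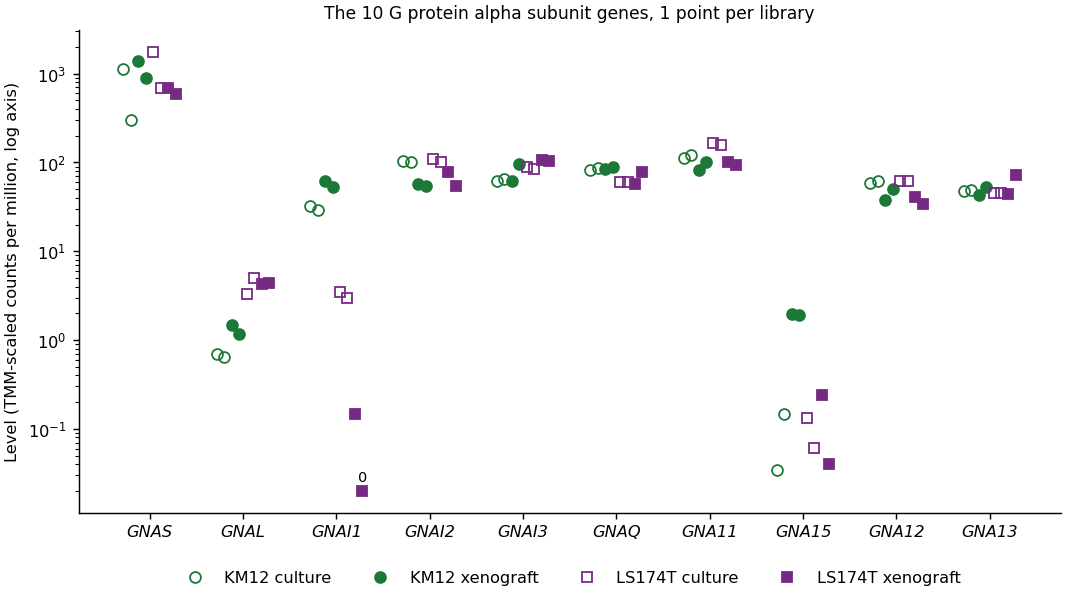
Each point is 1 library; the y axis is TMM-scaled CPM on a log axis and the x axis lists the 10 genes. Within a gene the points run from KM12 culture and xenograft to LS174T culture and xenograft, with the parental or Dox (+) library first in each pair; the LS174T Dox (-) xenograft has 0 counts of GNAI1 and is drawn at the foot of the axis. GNAI1 separates the lines, and GNA15 is near 2 CPM in the KM12 xenografts alone.

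The first comparison asked how the alpha subunits differ with GNAS state, as KM12 parental against knockout and LS174T Dox (+) against Dox (-). GNAS itself was higher in 4 of 4 pairs, by 3.75-fold (95% counting interval 3.67 to 3.84) in KM12 culture, 2.52-fold (2.49 to 2.56) in LS174T culture, 1.54-fold (1.51 to 1.57) in KM12 xenografts and 1.18-fold (1.15 to 1.21) in LS174T xenografts. The intervals cover counting error only. Over the 4 pairs this came to a log2 difference of 1.03 ± 0.28 (SE), short of the threshold of 0.05 in the quasi-likelihood test of edgeR, Benjamini-Hochberg adjusted over all genes tested (adjusted p = 0.776). None of the 10 members passed, as 0% of the 16070 genes did. At an unadjusted p below 0.05 there were 977 genes, of which GNAS was the 1 member. DESeq2 called 53 genes, 1 of them the member GNAS (adjusted p = 0.0258), and limma-voom called 0.

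The ratio of GNAS was smaller in xenografts than in culture in both lines. The difference between environments in the log2 difference was -1.19 ± 0.25 (SE), and edgeR gave it an adjusted p of 0.891 (unadjusted 0.00412). DESeq2 gave an adjusted p of 0.0244 and edgeR without the filter on low counts 1.735e-05, while limma-voom gave 0.7175, so the call depends on the method. In KM12 the library labelled knockout went from 298 CPM in culture to 903 CPM in the xenograft, while the parental library went from 1119 to 1390 CPM. In LS174T the Dox (+) library went from 1746 CPM in culture to 691 CPM in the xenograft, and the Dox (-) library from 691 to 586 CPM. The KM12 parental xenograft is the library with 264 CPM of fibroblast markers, mostly COL3A1. The part of other cells in its GNAS counts was not tested. With 1 pair left out the log2 difference of GNAS ran from 0.72 (without the KM12 culture pair) to 1.29 (without the LS174T xenograft pair). On the culture pairs alone it was 1.61 (adjusted p = 0.068) and on the xenograft pairs alone 0.42 (adjusted p = 0.940).

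The other Gs member, GNAL, stood at 0.688 and 0.644 CPM in KM12 parental and knockout culture and at 3.28 and 4.94 CPM in LS174T Dox (+) and Dox (-) culture. Its log2 difference across pairs was -0.09 ± 0.26 (SE, adjusted p = 0.947). Among the Gi members, GNAI2 lay above its partner library in 4 of 4 pairs, by little in most of them. GNAI2 stood at 103 CPM beside 101 in KM12 culture and at 56.5 beside 54 in KM12 xenografts. In LS174T it stood at 108 beside 101 CPM in culture and at 78.7 beside 53.8 in xenografts. GNAI1 was above its partner in the same pairs, but in LS174T xenografts this rests on 3 counts beside 0. Its counting interval in LS174T culture, 0.878 to 1.56, lay on both sides of equality. In KM12 xenografts its ratio was 1.17 (1.07 to 1.27). How many of all genes kept a single direction over the pairs is not given here. GNA13, of the G12 class, lay below in 4 of 4 pairs, with 47.3 against 48.8 CPM in KM12 culture, 42.9 against 53.4 in KM12 xenografts, 44.8 against 44.9 in LS174T culture and 44.4 against 72.9 in LS174T xenografts. None of the 3 passed edgeR's test (log2 difference 0.25 ± 0.21, adjusted p = 0.813 for GNAI1, 0.19 ± 0.11, adjusted p = 0.790 for GNAI2 and -0.27 ± 0.13, adjusted p = 0.776 for GNA13). The larger gaps of GNAI2 and GNA13 were both in the LS174T xenografts.

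GNAL was at 0.664 (counting interval 0.512 to 0.858) in the LS174T culture pair, 99 against 161 counts, and at 1.07 (0.552 to 2.05) in the KM12 culture pair. GNAI1 was at 1.11 (1.02 to 1.22) in KM12 culture and 1.17 (0.878 to 1.56) in LS174T culture. For the 6 members other than GNAS, GNAL, GNAI1 and GNA15 the culture ratios lay between 0.916 (GNA11 in KM12) and 1.07 (GNA11 and GNAI2 in LS174T). In the xenograft pairs the same 6 genes ran from 0.609 (GNA13 in LS174T) to 1.46 (GNAI2 in LS174T). GNAI3 was at 0.642 in the KM12 xenografts, 61.6 against 95.9 CPM. The median absolute log2 difference was 0.165 over the 10 members and 0.145 over all genes tested. The groups of 4 libraries overlapped for 10 of 10 members, where 0.199% of all genes did not overlap. The effect of GNAS state differed between the lines past the test for 0 of 10 members by edgeR (lower or higher), DESeq2 or limma-voom, with 0 members at an unadjusted p below 0.05. In all 16070 genes edgeR called 1 (0.00622%), CTPS2, which is no alpha subunit.

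The second comparison asked how xenografts differ from cultures of the same line and GNAS state. GNAI2, GNA11 and GNA12 fell in the xenografts, one member each of the Gi, Gq and G12 classes. GNAI2 read 103 CPM in KM12 parental, 101 in KM12 knockout, 108 in LS174T Dox (+) and 101 in LS174T Dox (-) culture. The matching xenografts, in that order, read 56.5, 54, 78.7 and 53.8 CPM. Every culture lay above every xenograft. GNA11 read 112, 122, 167 and 155 CPM in the cultures and 82.1, 101, 102 and 93.7 CPM in the xenografts, again without overlap. GNA12 read 59.3, 61.6, 61.9 and 61.1 CPM in the cultures, almost level, and 37.7, 50.3, 40.7 and 33.8 CPM in the xenografts.

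The log2 differences, xenograft minus culture, were -0.79 ± 0.13 (SE) for GNAI2, -0.60 ± 0.14 for GNA12 and -0.54 ± 0.13 for GNA11. Their adjusted p-values by edgeR's quasi-likelihood test over all genes were 0.0161, 0.0291 and 0.0354. So 3 of 10 members were called, all lower, where 26.1% of all genes were called and 13.5% were called lower. The share called in either direction is near the background. The same 3 genes were the members whose groups of libraries did not overlap, where 26.4% of all genes did not overlap and 13.8% lay lower without overlap. With 1 pair left out, the adjusted p of GNAI2 ran from 0.0441 to 0.0631 and stayed below 0.05 only without the KM12 parental pair. That pair holds the xenograft with 264 CPM of fibroblast markers, mostly COL3A1. The adjusted p of GNA12 ran from 0.0459 to 0.117 and stayed below 0.05 only without the KM12 knockout pair. For GNA11 it ran from 0.0572 to 0.149. The direction was lower in all of these fits. Scaling by total counts alone, added after the data were seen, raised the median log2 difference of all genes from 0.0187 to 0.278 and turned 2023 higher and 2166 lower calls into 3347 and 985. GNAI2 then stood at -0.53 (adjusted p = 0.0353), GNA12 at -0.34 (0.117) and GNA11 at -0.28 (0.177), while GNAI3 stood at 0.55 (0.0362).

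**Figure D3:**
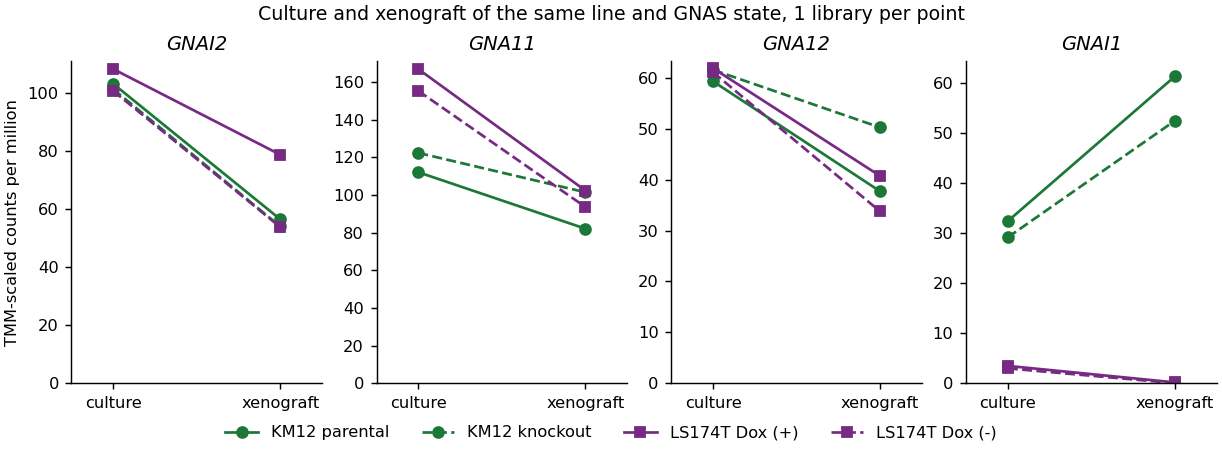
Lines join culture to xenograft for the same line and GNAS state, with TMM-scaled CPM on the y axis from 0 and 1 library a point. GNAI2, GNA11 and GNA12 go down in 4 of 4 pairs each, whereas GNAI1 goes up in both KM12 pairs (32.4 to 61.4 and 29.2 to 52.5) and down in both LS174T pairs.

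GNAI1 was higher in xenografts of KM12 and lower in those of LS174T. In KM12 it read 32.4 CPM in parental and 29.2 CPM in knockout culture and 61.4 and 52.5 CPM in the matching xenografts, that is 1.89-fold (counting interval 1.73 to 2.07) and 1.80-fold (1.65 to 1.96) higher in the tumors. In LS174T it read 3.45 CPM in Dox (+) and 2.95 CPM in Dox (-) culture, from 104 and 96 counts. The xenografts held 3 counts in Dox (+) and 0 counts in Dox (-). The Dox (+) xenograft was thus at 0.0422 of its culture (counting interval 0.00857 to 0.127), and the Dox (-) xenograft was at least 24.1-fold lower than its culture, against a floor of 3 counts in that library. The counting interval of that ratio, which is wider, reached up to 0.0519. The difference between the lines was -6.37 ± 0.60 on the log2 scale (SE, LS174T minus KM12, adjusted p = 0.00118 by edgeR), a fitted size that depends on how counts of 0 are handled. It was called by DESeq2, limma-voom and both other scalings as well. Of the 10 members 1 passed this test, as lower, where 13.7% of all genes did, 5.94% lower and 7.74% higher.

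GNA15 was seen almost only in the KM12 xenografts, with 34 counts (1.95 CPM) in parental and 39 counts (1.89 CPM) in knockout. The other 6 libraries held 1 to 5 counts each. The parental xenograft was 56.7-fold above its culture (counting interval 9.51 to 2304, from 34 against 1 count) and the knockout xenograft 12.9-fold (5.09 to 42). The log2 difference across the 4 pairs was 2.80 ± 1.02 (SE) and did not pass edgeR's test (adjusted p = 0.0902), nor did the difference between lines (-3.91 ± 1.30, adjusted p = 0.0824). limma-voom called that difference (adjusted p = 0.0422). GNA15 is known for its expression in blood cells. The 7 leukocyte markers summed to 2.01 and 3.01 CPM in the KM12 xenografts and to 1.55 and 2.93 CPM in the KM12 cultures. Within that list the markers did not move together. CD68 read 0.55 CPM in parental culture and 0.86 in its xenograft, and 0.498 and 1.02 in knockout. ITGAM read 0.206 CPM in parental culture and 0.401 in its xenograft, and 0.205 and 0.534 in knockout. CSF1R went the other way, from 0.516 to 0.344 CPM in parental and from 1.846 to 1.019 CPM in knockout. PTPRC had 0 counts in both tumors. The part of other cells, human or mouse, in the GNA15 counts was not tested.

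GNAS had no common direction between xenograft and culture. Its ratio was 3.03 (2.96 to 3.10) in KM12 knockout and 1.24 (1.22 to 1.26) in KM12 parental, against 0.847 (0.829 to 0.865) in LS174T Dox (-) and 0.396 (0.389 to 0.403) in LS174T Dox (+). The log2 difference was 0.08 ± 0.48 (SE, adjusted p = 0.913), and the difference between lines was -1.74 ± 0.62 (adjusted p = 0.160 by edgeR). Without the filter on low counts that difference had an adjusted p of 0.045. Scaled by total counts alone, the log2 difference of GNAS between xenograft and culture was 0.34 (adjusted p = 0.623 by edgeR). The size of its ratios thus depends on the scaling, which the counting intervals do not cover. GNAQ had the narrowest range of the 9 members without a 0, 1.55-fold over the 8 libraries, with 83.1 and 86.8 CPM in the KM12 cultures and 84.3 and 87.8 in the KM12 xenografts. In LS174T it read 60.6 CPM in Dox (+) culture and 59.6 in Dox (-) culture, against 56.6 and 77.9 in the tumors. GNAI3 was higher in the xenograft in 3 of 4 pairs and equal in the KM12 parental pair (61.6 against 61.7 CPM), with a log2 difference of 0.29 ± 0.14 (adjusted p = 0.157). The test was not passed by GNA13 (adjusted p = 0.479) or GNAL (0.292) either.

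**Figure D4:**
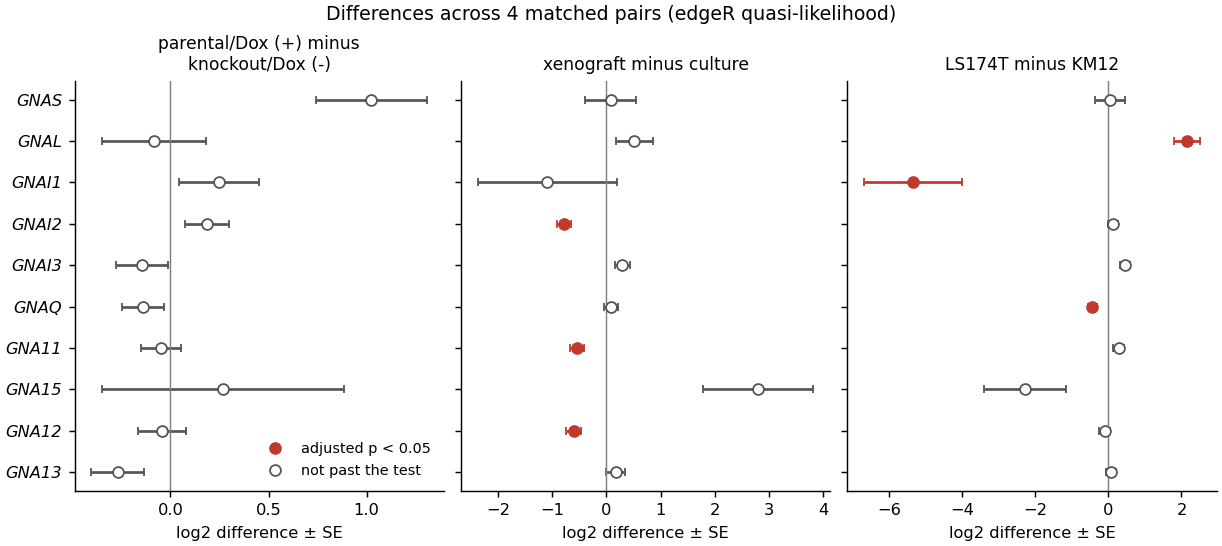
Points give the log2 difference of each of the 10 genes across 4 matched pairs, with the SE from the test as bars, for GNAS state, environment and line; the 3 panels have different x axes. Filled red points passed edgeR's test at an adjusted p below 0.05: 0 genes for GNAS state, GNAI2, GNA11 and GNA12 for environment, and GNAL, GNAI1 and GNAQ for line.

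The third comparison set LS174T against KM12 in the same environment and GNAS state, so the pairing of KM12 knockout with LS174T Dox (-) is one of state only. GNAL was higher in LS174T, and GNAI1 and GNAQ were lower. GNAL read 0.688, 0.644, 1.49 and 1.16 CPM in KM12 parental culture, knockout culture, parental xenograft and knockout xenograft, from 20 to 26 counts. In LS174T it read 3.28 CPM in Dox (+) culture, 4.94 in Dox (-) culture, 4.27 in the Dox (+) xenograft and 4.39 in the Dox (-) xenograft, all above every KM12 library. The log2 difference was 2.15 ± 0.35 (SE, adjusted p = 0.00900), and with 1 pair left out the adjusted p ran from 0.0196 to 0.04. Of the annotated exon bases of GNAL, 28.1% overlap another gene, chiefly MPPE1 on the opposite strand, and the protocol does not mark strand, so its few counts are uncertain.

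GNAI1 had the largest fitted difference of the 10 members between the lines. The KM12 libraries ran from 29.2 to 61.4 CPM and the LS174T libraries from 0 to 3.45. In culture LS174T held 0.106 (counting interval 0.0859 to 0.13) and 0.101 (0.081 to 0.125) of the KM12 level. In xenografts Dox (+) held 0.00237 (0.000488 to 0.00694) of KM12 parental, and Dox (-) was at least 430-fold below KM12 knockout against the floor of 3 counts, with a counting interval of the ratio up to 0.00286. The fitted log2 difference was -5.34 ± 1.34 (SE, adjusted p = 0.0322), a size set in part by the 0. The adjusted p ran from 0.0492 to 0.0894 with 1 pair left out, and was below 0.05 only without the culture pair of KM12 parental and LS174T Dox (+). Without the filter on low counts it was 0.218. The other Gi members were counted in both lines. GNAI3 read 83.5 to 107 CPM in LS174T and 61.6 to 95.9 CPM in KM12 (log2 difference 0.46 ± 0.14, adjusted p = 0.0598, with 0.0166 by DESeq2), and GNAI2 read 53.8 to 108 against 54 to 103 CPM.

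GNAQ read 56.6 to 77.9 CPM in LS174T and 83.1 to 87.8 CPM in KM12, with no overlap. Its log2 difference was -0.44 ± 0.12 (SE, adjusted p = 0.0420). With 1 pair left out the adjusted p ran from 0.0308 to 0.214 and was below 0.05 only without the knockout and Dox (-) xenograft pair, and without the filter on low counts it was 0.105. Its close relative GNA11 did not pass the test, with 82.1 to 122 CPM in KM12 and 93.7 to 167 CPM in LS174T (0.28 ± 0.15, adjusted p = 0.196). In all, 3 of 10 members were called between the lines, 1 higher and 2 lower, where 31.5% of all genes were called, 16.7% higher and 14.8% lower. The share of members is near the background here too. The same 3 members had groups that did not overlap, against 29.7% of all genes, 15.2% higher and 14.5% lower. GNAS averaged 927.5 CPM over the KM12 libraries and 928.5 CPM over the LS174T libraries (log2 difference 0.05 ± 0.42, adjusted p = 0.935). Its pairs went in opposite directions. In culture LS174T held 1.56 and 2.32 of the KM12 level of GNAS, and in xenografts 0.497 and 0.649. The differences of GNA12 (-0.10 ± 0.15) and GNA13 (0.07 ± 0.14) were within 1 SE of 0.

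Among other genes of the pathway, the beta and gamma subunits, the chaperones of alpha subunits, RGS proteins and effectors were read from lists made by name. For GNAS state 0 genes of any list passed edgeR's test, over 2 other alpha (GNAZ and GNA14), 4 beta, 8 gamma, 8 chaperone and regulator, 11 RGS and 12 effector genes tested. At an unadjusted p below 0.05 there were 1 gamma subunit and 3 effectors. The beta subunit with the highest median CPM, GNB1, had a log2 difference of -0.09 ± 0.10, and the gamma subunit GNG12 of -0.43 ± 0.11 (adjusted p = 0.776). RIC8A, the chaperone that folds new Gi, Gq and G12 subunits, stood at 0.09 ± 0.11, RGS12 at -0.14 ± 0.16 and the phospholipase PLCB3 at 0.06 ± 0.11.

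Between xenograft and culture 2 of 8 gamma subunits passed, where 26.1% of all genes did. GNG10 rose (1.85 ± 0.44, adjusted p = 0.0315), from 1.855 to 6.327 CPM in the cultures to 10.49 to 14.76 CPM in the xenografts. GNG5 fell (-0.49 ± 0.12, adjusted p = 0.0345). Of the other lists CCDC88C, a regulator that binds Gi subunits, fell (-0.81 ± 0.15, adjusted p = 0.0195), as did ADCY9, an adenylyl cyclase (-0.86 ± 0.18, adjusted p = 0.0236), while 0 of 4 beta subunits and 0 of 11 RGS genes passed.

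Between the lines 31.5% of all genes passed, 16.7% higher and 14.8% lower in LS174T, and the counts of each list stand beside that. Among 8 gamma subunits 3 were lower in LS174T and 0 higher: GNG4 (-4.91 ± 0.57), GNG13 (-2.08 ± 0.38) and GNG2 (-4.07 ± 0.92). GNB5, the beta subunit that pairs with RGS proteins such as RGS7, was lower (-2.35 ± 0.45), at 15.5 to 19.71 CPM in KM12 and 1.624 to 7.809 CPM in LS174T. RGS7 was lower too (-3.25 ± 0.52). RGS proteins speed GTP hydrolysis on Gi and Gq subunits; 2 of 11 were higher in LS174T, RGS14 (2.84 ± 0.25) and RGS12 (2.32 ± 0.21), and 3 lower, RGS2 (-2.20 ± 0.30), RGS19 (-2.35 ± 0.36) and RGS7. CCDC88A, which activates Gi subunits without a receptor, read 59.45 to 96.76 CPM in KM12 and 0.5633 to 5.044 CPM in LS174T (-5.37 ± 0.85). RIC8B, the chaperone of Gs subunits, was lower (-0.89 ± 0.13) and GPSM2 higher (0.56 ± 0.13). Of 12 effectors 2 were higher, PLCB2 (3.27 ± 0.48) and ADCY4 (4.04 ± 1.12), and 4 lower, with the smallest p for ARHGEF1 (-0.84 ± 0.10), ADCY7 (-2.03 ± 0.32) and ARHGEF12 (-0.56 ± 0.11). Each of the named genes had an adjusted p of at most 0.042 by edgeR over all genes. GNG4, GNG13 and RGS7 were below 1 CPM in every LS174T library, and ADCY4 in every KM12 library. GNG2 was below 1 CPM in LS174T except in the Dox (+) xenograft, at 2.231 CPM. These genes passed the filter only through the other line, so their calls lean on the line where they were high. PLCB2 read 0.6306 to 1.523 CPM in KM12, near the threshold of the filter, so its call leans on LS174T.

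Genes that neighbour GNAS on chromosome 20 were read to see whether the locus moved with it. Within 500 kb, 11 genes were tested, and 0 of them passed for GNAS state (8 below and 3 above 0, median log2 difference -0.13, against 0.0141 for all genes). NELFCD, the neighbour with the highest median CPM, read 208.5 CPM in KM12 parental and 200 CPM in knockout culture and 151.1 and 150.4 CPM in LS174T Dox (+) and Dox (-) culture. The antisense gene GNAS-AS1, which shares 1127 exon bases with GNAS, had at most 0.3395 CPM. Between lines GNAS averaged 928.5 CPM in LS174T against 927.5 CPM in KM12, higher in LS174T in both culture pairs and lower in both xenograft pairs. Of the 11 neighbours 6 were lower in LS174T and 1 higher (14.8% and 16.7% of all genes). The lower ones with the smallest p were RAB22A (-1.05 ± 0.12), VAPB (-1.19 ± 0.17) and STX16 (-0.89 ± 0.18), and the higher one was CTSZ (0.59 ± 0.14). Between environments 3 of the 11 neighbours were called higher in xenografts and 1 lower, where 12.6% and 13.5% of all genes were. The higher ones were NPEPL1 (1.97 ± 0.18), AL139349.1 (4.25 ± 0.59) and the readthrough gene STX16-NPEPL1 (1.40 ± 0.30), and the lower one was CTSZ (-0.76 ± 0.13). AL139349.1 read at most 0.1657 CPM in the cultures and passed the filter only through the xenografts, so its call leans on them. NPEPL1 and the readthrough share exons, so their counts are not independent.

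Over the 8 libraries the level of GNAS was most like that of CCDC163 (Pearson's r = 0.903 on log2 CPM), then KCNJ2 (0.859), SOD2 (0.814), PPP1R3D (0.795) and PLEKHA8 (0.78), out of 11433 genes whose mean reached 5 CPM. CCDC163 ran only from 5.595 to 8.747 CPM, while KCNJ2, a potassium channel, ran from 1.23 to 18 CPM. The 8 points share lines, environments and GNAS states, so these are descriptions without a test. Of the other members 7 reached that mean, and GNAL and GNA15 did not and have no value. Among those 7, r was 0.212 for GNAI1, 0.0617 for GNA11, -0.0122 for GNA12, -0.046 for GNAI2, -0.0574 for GNAI3, -0.173 for GNAQ and -0.355 for GNA13.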

How the data were processed

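STAR 2.7.2b and HTSeq 0.11.0 are the tools that the submitters' processing notes name, beside the builds hg38 and GRCm39, with no role given. The deposited values are raw read counts per human gene and library. The annotation release, the strand setting and the handling of mouse reads are not given in the sources used here, and the labels' protocols describe poly(A) capture with a second strand made from dNTPs, which marks no strand. The labels give the mouse as organism of the xenograft libraries.

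Names, coordinates, lengths and coding sequences came from GENCODE 29 on GRCh38 by unversioned gene identifier, which matched 93.8% of the 60483 genes. Libraries were scaled by TMM. The filter kept a gene that reached 1 CPM in 2 or more libraries. Tests used edgeR 4.0.16 (R 4.3.3), its robust quasi-likelihood F test, Benjamini-Hochberg adjusted over 16070 genes, threshold 0.05. Each effect had 4 matched pairs as a block (3 residual degrees of freedom), and each difference between effects 2. The SE was computed as the size of the log2 difference over the root of F. limma 3.58.1 and DESeq2 1.42.0 were alternatives, beside RLE factors, total counts, no filter and leaving out pairs. Scripts were tested on simulated data. Single pairs have 95% exact conditional intervals for counting error and a floor of 3 counts. Levels per length used the union of annotated exons.

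The members and lists were chosen with earlier results of these data known. All 10 members were named, and from each list up to 3 genes per direction past the test with the smallest p, otherwise the gene with the highest median CPM. For likeness to GNAS the 5 genes with the highest r were named.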

Additional observations from a re-analysis of the deposited data

Results flagged for a closer look

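GNAI1 differed between the lines in its change from culture to xenograft. The difference was -6.37 on the log2 scale (LS174T minus KM12), past edgeR's quasi-likelihood test of the difference itself. The 2 KM12 pairs moved up (1.89-fold and 1.80-fold) and the 2 LS174T pairs moved down, to 3 and 0 counts from 104 and 96. With 1 library in each group the result has no check by repeated tumors.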

How the results depend on the processing

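For GNAS state edgeR called 0 of all genes and 0 members. DESeq2 called 53 genes and 1 member, edgeR without the filter 281 genes, on culture pairs alone 194 and on xenograft pairs alone 1, and with 1 pair left out 0 to 1 genes and 0 members. For the environment 4189 genes and 3 members were called, and with 1 pair left out 11 to 2613 genes and 0 to 1 members, the lowest count of genes without the LS174T Dox (+) pair; scaling by total counts called 2 members. For the line 5069 genes and 3 members were called. Without the filter 1 member (GNAL) was called, and with 1 pair left out 2726 to 4152 genes and 1 to 3 members. Of differences between effects, edgeR called 1 gene between lines for GNAS state (DESeq2 5, limma-voom 0, no filter 123), 0 between environments (DESeq2 28, no filter 160) and 2198 for the environment between lines (no filter 3428). The share of GNAS was 50.4% by exon union and 68.5% by the longest coding transcript.

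Signs that turned belonged to members not past the test. With 1 pair left out the log2 difference for GNAS state ran from -0.23 to 0.12 for GNAL, -0.23 to 0.014 for GNAI3, -0.11 to 0.032 for GNA11, -0.086 to 0.67 for GNA15 and -0.15 to 0.072 for GNA12. For the environment it ran from -0.41 to 0.56 for GNAS and -0.0069 to 0.15 for GNAQ, and for the line from -0.30 to 0.42 for GNAS, -0.17 to 0.059 for GNA12 and -0.046 to 0.17 for GNA13. On culture pairs alone GNAI3 stood at 0.0056 for GNAS state, and on xenograft pairs alone GNAL at 0.13. For the environment limma-voom gave GNAI1 0.34, and the fit without the filter gave GNAS -0.017 and GNAQ -0.012. The difference between lines in the environment effect of GNAI3 was -0.0061 with RLE factors, -0.0062 with DESeq2 and -0.024 with total counts. Over single members and settings, pair ratios of GNAS included, 402 results were the same, 20 lost the call, 9 gained it and 20 changed sign. The same here means direction and side of the threshold kept or, for a pair ratio, a value within its counting interval. A further 6 were pair ratios of GNAS that left their counting interval when the scaling was changed. The labels carry no replicate numbers, so the only pairs are those of matched line, environment and GNAS state that every fit used. Counts of a few reads, as for GNA15 and for GNAI1 in LS174T, limit what can be said of those genes.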
